A study of Mus musculus with 8 samples.

Results

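The genes described here are 10 genes of insulin signalling (Insr, Igf1r, Irs1, Irs2, Grb10, Pik3r1, Pik3ca, Akt1, Akt2 and Mtor), seen through the ATAC-seq summits around them in mouse brown adipose tissue (BAT). In ATAC-seq a transposase cuts DNA that is free of nucleosomes, and a summit is the point of a peak where the cuts are densest. A summit was counted at a gene when it lay inside the gene or no more than 50 kb from a transcription start site (TSS) of one of its RefSeq mRNAs. By this rule 84 of the 32173 summits in the deposited list (0.261%) lay at the 10 genes, and every one of the 10 genes had at least 2.

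ATAC-seq was done on BAT of 2 WT and 2 Dot1L-BKO mice. Dot1L-BKO mice lack Dot1l, a methyltransferase for lysine 79 of histone H3, through a Cre driven by the Ucp1 promoter, and the WT mice were Dot1l f/f littermates. All mice were 12 weeks old, ate chow and spent 4 hr at 4°C before the tissue was taken, so that no group at a warmer temperature exists for these libraries. Ucp1-Cre acts in Ucp1+ cells alone, while whole BAT also holds vessels, blood cells and precursors. The 4 libraries gave a single list, in which each summit has a position in mm10 and a score, the −log10 of the MACS2 q-value. The files name the WT libraries against the Dot1L-BKO libraries, and which of them entered MACS2 as signal and which as background is not given in the sources used here. If the Dot1L-BKO libraries were the background, a summit would mark more signal in WT, and a site equally open in both genotypes could lack one, so that neither a summit nor its absence is read here as open or closed chromatin in a genotype. No value per library could be read from the list. Depth is therefore unknown, there is no replicate error, no difference between the genotypes was measured, and all values below describe the list alone with no test.

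Insulin and the insulin-like growth factors bind receptor tyrosine kinases, which phosphorylate docking proteins of the IRS family. These recruit phosphoinositide 3-kinase (PI3K), the lipid it makes brings AKT to the membrane, and AKT and the kinase MTOR pass the signal on to glucose uptake, lipid synthesis and protein synthesis. Brown adipocytes are highly sensitive to insulin, which drives glucose uptake through the transporter Slc2a4 and the making of fat droplets.

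The sequences below show 1 promoter summit each of Irs1, Irs2, Pik3ca, Akt1, Akt2 and Mtor, as examples from the docking, PI3K, AKT and TOR steps, and the pair of strong summits inside Mtor. They are reference sequence of mm10 within 100 bp of the summit, written 5′ to 3′ on the strand of the gene. Exon bases were left out, so that some runs are shorter than 201 bases. Capitals mark short motifs found on either strand: AGGTCA (nuclear receptors), GGGCGG (SP/KLF), TGACG (short form of the cAMP response element), TGANTCA (AP-1), TTGCNNCAA (C/EBP), CACGTG (E-box), TGTTTAC (FOXO), CCGGAAG (ETS), AAGATGG (YY1) and TGTGGT (RUNX).
Irs1 promoter, chr1:82291467-82291667, minus strand: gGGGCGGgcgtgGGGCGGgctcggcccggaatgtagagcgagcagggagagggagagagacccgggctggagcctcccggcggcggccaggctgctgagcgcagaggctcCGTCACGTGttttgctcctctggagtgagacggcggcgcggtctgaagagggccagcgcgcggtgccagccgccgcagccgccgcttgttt
Irs2 promoter, chr8:11008930-11009029, minus strand: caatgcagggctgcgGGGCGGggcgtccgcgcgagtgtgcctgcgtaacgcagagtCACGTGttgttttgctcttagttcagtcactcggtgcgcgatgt
Pik3ca promoter, chr3:32396902-32397064, plus strand: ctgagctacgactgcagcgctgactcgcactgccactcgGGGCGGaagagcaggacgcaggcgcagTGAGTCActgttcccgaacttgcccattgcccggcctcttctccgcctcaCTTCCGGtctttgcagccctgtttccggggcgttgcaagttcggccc
Akt1 promoter, chr12:112674924-112675124, minus strand: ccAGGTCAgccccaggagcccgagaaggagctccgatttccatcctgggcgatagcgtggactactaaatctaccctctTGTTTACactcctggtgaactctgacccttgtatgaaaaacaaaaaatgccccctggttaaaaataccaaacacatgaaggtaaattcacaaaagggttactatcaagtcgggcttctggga
Akt2 promoter of the third TSS, chr7:27605589-27605789, plus strand: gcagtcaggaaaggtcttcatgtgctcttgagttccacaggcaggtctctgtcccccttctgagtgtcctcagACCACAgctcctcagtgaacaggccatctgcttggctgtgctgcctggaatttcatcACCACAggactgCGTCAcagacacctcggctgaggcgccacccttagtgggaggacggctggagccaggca
Mtor promoter, chr4:148448413-148448581, plus strand: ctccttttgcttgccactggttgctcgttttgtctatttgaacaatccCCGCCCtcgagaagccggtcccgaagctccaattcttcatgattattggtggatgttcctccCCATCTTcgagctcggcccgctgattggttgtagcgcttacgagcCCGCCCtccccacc
Mtor intron 13, chr4:148466455-148466655, plus strand: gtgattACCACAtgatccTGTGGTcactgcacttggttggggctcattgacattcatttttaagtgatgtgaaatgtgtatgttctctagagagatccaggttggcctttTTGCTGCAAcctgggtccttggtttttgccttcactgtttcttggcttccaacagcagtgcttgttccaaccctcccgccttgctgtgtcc
Mtor intron 19, chr4:148472873-148473073, plus strand: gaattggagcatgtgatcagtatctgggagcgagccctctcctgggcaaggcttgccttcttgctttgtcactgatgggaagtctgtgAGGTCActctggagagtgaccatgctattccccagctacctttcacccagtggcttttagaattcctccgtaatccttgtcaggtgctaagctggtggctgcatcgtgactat

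In the Irs1 promoter TGACG and the E-box overlap and appear as 1 run of capitals. The Irs1 and Irs2 promoters, which belong to the 2 docking proteins, both held GGGCGG and an E-box. Of all summits within 1 kb of a TSS, 45.0% held GGGCGG and 6.48% the E-box. The next sequences are those of Igf1r and Grb10, the 2 members with no summit within 1 kb of a TSS. Here TTGGCA, bound by NFI, and AGATAA, bound by GATA factors, are marked as well, and the sequence upstream of Igf1r held none of the motifs searched.
Igf1r upstream summit, chr7:67951077-67951277, plus strand: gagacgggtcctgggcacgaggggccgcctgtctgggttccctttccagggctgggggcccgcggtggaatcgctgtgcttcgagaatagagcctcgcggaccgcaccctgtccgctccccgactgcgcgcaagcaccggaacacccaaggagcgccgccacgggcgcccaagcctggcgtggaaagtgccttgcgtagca
Igf1r intron 2, chr7:68097128-68097328, plus strand: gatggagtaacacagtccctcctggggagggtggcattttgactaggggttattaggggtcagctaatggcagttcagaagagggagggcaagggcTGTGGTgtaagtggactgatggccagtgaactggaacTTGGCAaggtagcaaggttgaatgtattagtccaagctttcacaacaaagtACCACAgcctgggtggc
Grb10 intron 4, nearer the TSSs, chr11:11965834-11966034, minus strand: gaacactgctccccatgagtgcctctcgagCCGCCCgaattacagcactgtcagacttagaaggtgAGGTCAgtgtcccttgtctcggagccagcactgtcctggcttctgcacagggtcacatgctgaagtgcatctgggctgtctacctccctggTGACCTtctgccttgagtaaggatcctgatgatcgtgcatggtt
Grb10 intron 4, farther from the TSSs, chr11:11963693-11963893, minus strand: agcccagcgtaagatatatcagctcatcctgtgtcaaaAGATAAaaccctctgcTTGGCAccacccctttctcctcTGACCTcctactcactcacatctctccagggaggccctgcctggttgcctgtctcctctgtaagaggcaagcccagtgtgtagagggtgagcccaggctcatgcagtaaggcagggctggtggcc

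Marker genes of the tissue and of other cell types were looked up first. Since the roles of the libraries in MACS2 are not known, their summits describe the list and are no check of the tissue. A summit within 1 kb of a TSS, called a promoter summit below, was present at 45.2% of all genes. It was present at 10 of 10 adipocyte genes, some brown-selective and some general. Their highest promoter scores ran from 6.02 to 61.5 (Cidea), with Ucp1 at 33.7, where the median over all genes with one was 10.7. Of 5 endothelial genes 1 had one (Cdh5, 2.59), of 5 macrophage and leukocyte genes 1 (Cd68, 2.15), and of 4 hepatocyte genes 1 (Apoa1, 3.32). None of the 5 muscle genes and none of the 4 beta cell genes had one. The number of cells of a type and the openness of a site in each cell cannot be told apart in such a tissue.

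A promoter summit was present at 8 of the 10 members (exact 95% binomial interval 44.4% to 97.5%, for counting error only), against 45.2% of all 21000 genes with a curated RefSeq mRNA. The 2 members without one were Igf1r, a receptor, and Grb10, an inhibitor of the receptors. Taken by TSS, 12 of the 16 distinct start sites of the members had a summit within 1 kb, against 43.4% of all 25999. At 5 members the promoter score reached 10 (Insr, Irs2, Pik3ca, Akt2 and Mtor), against 23.5% of all genes, and 5 members had 2 or more promoter summits (Irs1, Irs2, Pik3r1, Pik3ca and Akt2), against 8.08% of all genes. Among the 8 members with a promoter summit the highest promoter score had a median of 17.8, where the median over the 9485 genes with one was 10.7, between quartiles of 5.55 and 20.9.

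**Figure D1:**
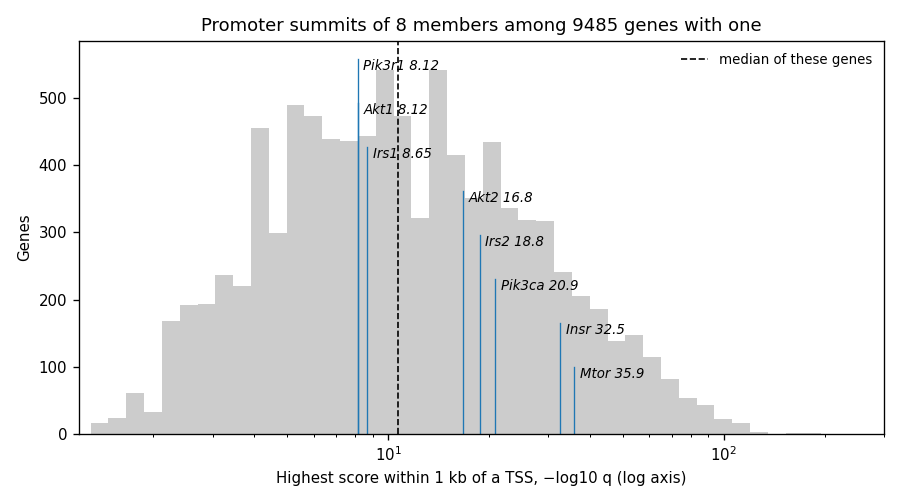
Highest promoter score of each gene (x axis, −log10 of the q-value, log axis) against the number of genes (y axis) for the 9485 genes with a summit within 1 kb of a TSS, with the 8 members as blue lines whose heights carry no value. Mtor at 35.9 and Insr at 32.5 lie farthest right, and Irs1, Akt1 and Pik3r1 lie left of the dashed median of 10.7.

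By the wider rule all 10 members had a summit, against 72.6% of all genes, and 3 members had 10 or more (Akt1 with 25, Akt2 with 16 and Mtor with 12), against 12.7% of all genes. The median was 5.5 summits over the members and 2 over all genes. Long genes and genes with several TSSs cover more DNA by this rule, and the counts were not adjusted for that. The members ran from 21.1 kb (Akt1) to 281 kb (Igf1r) in length. Much of the count at Akt1 came from its neighbours: 5 of its 25 summits had Akt1 as the gene of the nearest TSS, against 12 of 16 at Akt2 and 8 of 12 at Mtor. Inside the gene body Mtor had 9 summits, Akt2 8 and Akt1 4.

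**Figure D2:**
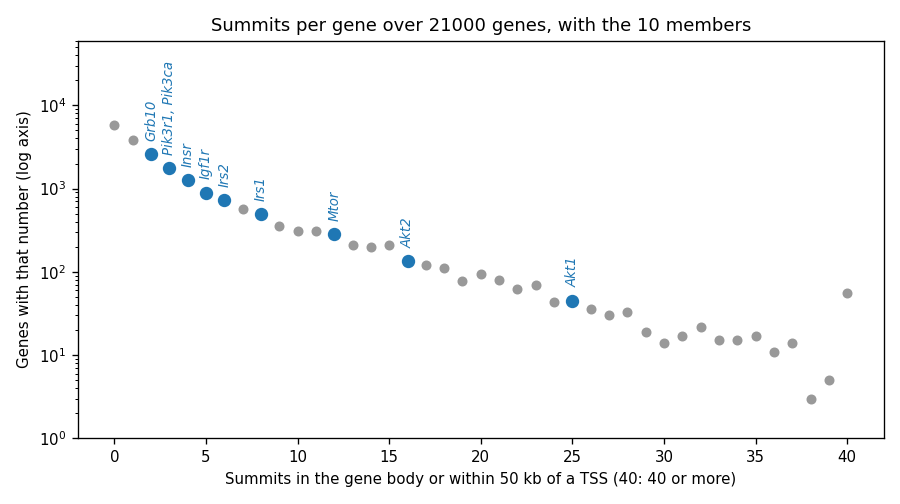
Number of summits by the rule (x axis) against the number of genes that have it (y axis, log axis) over 21000 genes, with grey points for each number and blue points for those that hold a member. Grb10 with 2 summits lies at the median of all genes, and Akt1 with 25 lies above 98.3% of genes.

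Of the 84 summits, 54 had a member as the gene of the nearest TSS and 30 had another gene. These 30 were spread unevenly, with 20 at Akt1, 4 at Akt2, 4 at Mtor, 1 at Irs1 and 1 at Pik3ca. By annotation 47 summits lay in introns, 9 in untranslated parts of exons, 8 in coding exons and 20 between genes, and 43 of the 84 lay inside the body of a member. Only 17 (20.2%, exact 95% binomial interval 12.3% to 30.4%) lay within 1 kb of a member's TSS. Counting the TSSs of the neighbours too, 25 (29.8%) lay within 1 kb of a TSS, against 32.2% of all summits.

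Scores at the 84 summits ran from 1.41 to 71.3, and their median was 4.47 and their quartiles were 3.29 and 8.25. In the whole list the median was 5.0, between quartiles of 3.05 and 9.39. A score of 10 was reached by 19 of the 84 (22.6%) and by 23.5% of all summits. The median score was 8.12 at the 17 summits near a member's TSS and 4.16 at the 67 others, where the whole list had 8.65 near a TSS and 4.16 away from one. In score, the summits of the members were thus close to the list as a whole.

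**Figure D3:**
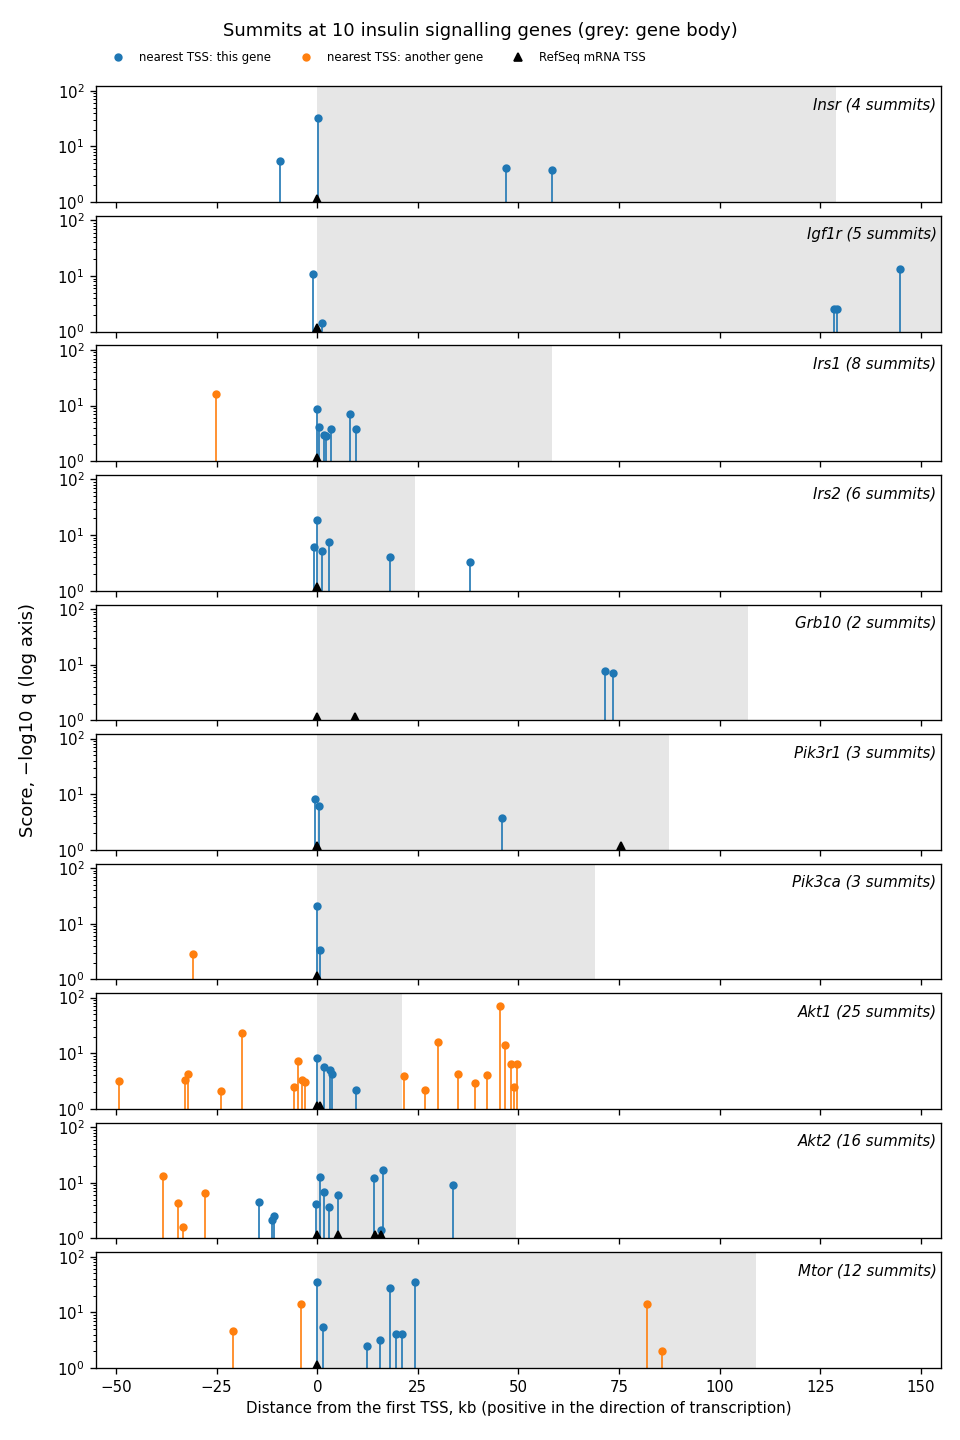
Score of each of the 84 summits (y axis, −log10 of the q-value, log axis) by its distance from the first TSS of the gene in kb (x axis), 1 panel per member. Blue stands for summits whose nearest TSS is of that gene and orange for those nearest another gene, triangles mark RefSeq mRNA TSSs, and the grey gene body of Igf1r runs on past the right edge; Akt1 carries 20 orange summits, and Grb10 has its 2 summits deep in the gene body.

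The receptors came first in the pathway and differed from each other. Insr (gene ID 16337, chr8:3150922-3279649, minus strand) encodes the insulin receptor. Its promoter summit lay 227 bp downstream of the TSS, in the untranslated part of exon 1, with a score of 32.5 that was above the promoter scores of 87.2% of the genes that have one. The other 3 Insr summits scored 5.55 at -9227 bp, 4.16 at 46897 bp and 3.75 at 58361 bp, the last 2 in intron 2. No other gene had an mRNA TSS within the range of Insr, so that each of its 4 summits was nearest to Insr itself.

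Igf1r (gene ID 16001, chr7:67952257-68233668, plus strand) encodes the receptor of insulin-like growth factor 1. Its nearest summit lay at -1080 bp with a score of 10.9, just outside the promoter window, and a summit at 1214 bp downstream scored 1.41, the lowest of all 84. That weak summit lay 644 bp from a GENCODE start of Igf1r, so that the lack of a promoter summit holds for the RefSeq mRNAs. The highest score at Igf1r, 13.3, was in intron 2 at 144971 bp from the TSS, with no other gene's mRNA TSS in range. A pair of weaker summits in the same intron, at 128401 and 129317 bp, scored 2.53 each. The 1 kb around the Igf1r TSS held 71.9% G and C, and its observed over expected CpG of 1.08 was the highest of the 10 members, above the 0.98 of Irs2, 0.71 of Insr and 0.33 of Akt1, which had promoter summits.

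Irs1 and Irs2 encode the docking proteins that the activated insulin receptor phosphorylates. Irs1 (gene ID 16367, chr1:82233105-82291439, minus strand) had promoter summits at -128 bp with a score of 8.65 and at 464 bp with 4.16. Irs1 had more summits in its own coding sequence than any other member. Its single large coding exon held 3 summits, at 1577, 2225 and 3438 bp, with scores of 2.92, 2.84 and 3.75. In its intron, summits at 8193 and 9549 bp scored 7.05 and 3.75. The highest score by the rule, 16.0 at -25152 bp, was 12 bp from the TSS of the neighbour Rhbdd1.

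Irs2 (gene ID 384783, chr8:10984681-11008929, minus strand) had the most exact placement, with a summit on the TSS base itself (0 bp) and a score of 18.8. A further promoter summit at -718 bp scored 6.02. In the coding part of exon 1, the summit at 3009 bp scored 7.58. The one at 1079 bp scored 5.07, and it lay on the annotated start of 9530052E02Rik, a non-coding RNA (0 bp), so that the list cannot tell which of the 2 genes this site belongs to. The remaining 2 Irs2 summits scored 4.10 at 17978 bp in intron 1 and 3.32 at 37991 bp, past the end of the gene. Both docking proteins thus had promoter summits, that of Irs2 above 70.7% of genes with one and that of Irs1 above 40%.

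Grb10 (gene ID 14783, chr11:11930499-12037428, minus strand) encodes an adaptor that binds the activated insulin and IGF1 receptors and dampens them, and the gene is imprinted. It had the fewest summits of the 10. Both lay in intron 4, at 62037 bp with a score of 7.58 and at 64178 bp with 7.05, and neither of its 2 TSSs had any summit nearer. Its TSS region held 75.3% G and C, near the 75.5% of Irs2, with an observed over expected CpG of 1.07. The nearest other annotated start, of the non-coding LOC102631979, lay 1591 bp from the one summit and 3732 bp from the other.

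PI3K is made of a regulatory and a catalytic subunit. Pik3r1 (gene ID 18708, chr13:101680761-101768217, minus strand) encodes the regulatory p85α and, from start sites farther downstream, shorter forms. At the TSS of the long form, position 101768217, summits lay at -504 bp with a score of 8.12 and at 385 bp with 6.02. The TSS of the short form, at position 101692630, had none within 1 kb, and its nearest summit, at -29598 bp, scored 3.75. The list thus held summits within 1 kb of 1 of the 2 start sites of Pik3r1.

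Pik3ca (gene ID 18706, chr3:32397065-32466112, plus strand) encodes the catalytic p110α. Its promoter summit at -63 bp scored 20.9, above 74.8% of genes with one, and a second within the first intron at 750 bp scored 3.32. The third summit by the rule, 2.92, lay at -441 bp from the TSS of the neighbour Zmat3. The 69.0 kb body of Pik3ca held no summit beyond that at 750 bp.

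AKT is the kinase on which the PI3K signal converges, and Akt1 and Akt2 had the most summits of the 10 genes. Akt1 (gene ID 11651, chr12:112653821-112674884, minus strand) lies in a dense stretch of genes, and only 5 of its 25 summits had Akt1 as the nearest gene. Its promoter summit, -140 bp from the upstream TSS, scored 8.12, a value it shared with Pik3r1 and that lay above 37.7% of genes with a promoter summit. The other 4 were inside the gene, with scores of 5.55 at 1045 bp, 5.07 at 2683 bp, 4.16 at 3033 bp and 2.15 at 9080 bp from the nearest Akt1 TSS.

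The highest score by the rule at any of the 10 genes, 71.3, was counted for Akt1 but lay in an intron of Adssl1, an enzyme of purine nucleotide synthesis, 44729 bp from the nearest Akt1 TSS and 9500 bp from that of Adssl1. It ranked 182 among the 32173 summits. Its sequence is shown because it is the strongest site by the rule, with TGANTCA and AGGTCA in capitals.
Adssl1 intron, on the strand of Akt1, chr12:112629447-112629647, minus strand: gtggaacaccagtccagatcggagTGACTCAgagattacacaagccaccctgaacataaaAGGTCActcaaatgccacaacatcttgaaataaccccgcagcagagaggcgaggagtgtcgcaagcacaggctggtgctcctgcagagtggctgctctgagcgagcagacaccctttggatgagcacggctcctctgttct

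Other strong sites around Akt1 were likewise at neighbours. A score of 16.0 lay at -28 bp from the TSS of Siva1, one of 14.0 lay in Adssl1, and one of 23.1 lay 14734 bp from the mRNA TSS of Zbtb42 and 14 bp from the GENCODE start of Gm30238, a model without a settled class. The 50 kb limit cut through this stretch: the outermost summits inside it, at 49096 and -49299 bp, scored 6.53 and 3.20, and the next outside, at 50354 bp and also in Adssl1, scored 12.4. Without Akt1 the other 9 genes held 59 summits.

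Akt2 (gene ID 11652, chr7:27591552-27640826, plus strand) encodes the AKT form on which insulin-driven glucose uptake in fat chiefly depends. It has 4 RefSeq mRNA TSSs, the most of the 10 genes, and each had a summit within 1 kb. Among all 305 genes with 4 or more TSSs, 49 (16.1%) had a summit within 1 kb of each. At the first TSS, position 27591552, summits at -299 and 702 bp scored 4.16 and 12.8, and at the second, 27596830, a summit at -140 bp scored 6.02. The third, 27605797, had one at -108 bp with 12.2. The last, 27607336, had 1.42 at 37 bp and 16.8 at 479 bp, the highest of the gene.

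Inside the gene, Akt2 summits at 1671 bp from the first TSS and at 17903 bp from the last, in intron 4, scored 6.88 and 9.21. Upstream, 3 summits at -14437, -11242 and -10705 bp lay in the gene 2310022A10Rik though nearest to an Akt2 TSS, and scored 4.61, 2.15 and 2.53. The summit at -299 bp was the single one of the 84 with masked repeats over more than 50% of its 201-bp window (69.7%), a share that 9.98% of all summits had. Of the 4 summits nearer to other genes, the strongest, 13.4, lay 28 bp from a TSS of Pld3.

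Mtor (gene ID 56717, chr4:148448582-148557685, plus strand) encodes the kinase of both TOR complexes. Its promoter summit at -69 bp scored 35.9, the highest promoter score of the 10 members and above 89.4% of genes with one. Inside the gene, a summit in intron 19 at 24391 bp scored 35.0, close to that of the promoter, and one in intron 13 at 17973 bp scored 26.9. Their sequences, shown above, held AGGTCA in intron 19 and a C/EBP motif and a pair of RUNX motifs in intron 13. In intron 35, at 82034 bp, a further summit scored 14.0, and the mRNA TSS nearest to it was that of Exosc10, at -27803 bp. A further 7 summits ran from 2.01 to 5.55.

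**Figure D4:**
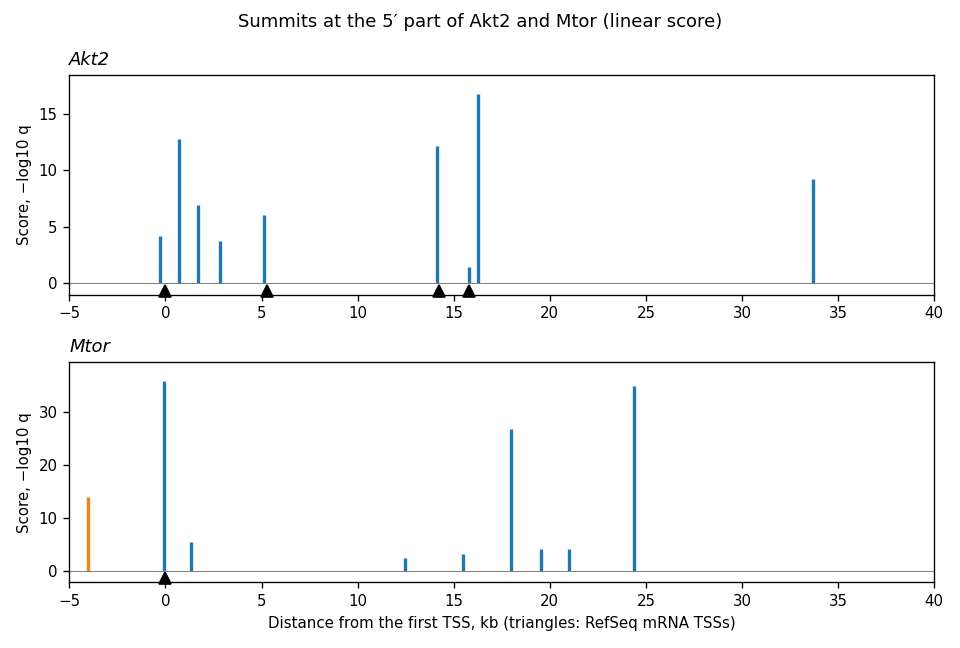
Scores (y axis, −log10 of the q-value, linear from 0) of the summits at Akt2 (top) and Mtor (bottom) by distance from the first TSS in kb (x axis, which shows only 5 kb before to 40 kb after that TSS), with triangles at RefSeq mRNA TSSs, blue for summits nearest to the gene itself and orange for the one in this stretch that is nearest to another gene. Each of the 4 Akt2 TSSs has a summit close by, and Mtor has a tall summit at its TSS (35.9) and 2 more in introns 13 and 19 (26.9 and 35.0).

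Short motifs were counted in the 201 bp around each summit and set beside their share in all 32173 summits. The nuclear receptor motif AGGTCA was found at 19 of the 84 (22.6%, against 15.2% of all), GGGCGG at 18 (21.4%, against 20.6%), AP-1 at 9 (10.7%, against 6.40%), RUNX at 12 (14.3%, against 12.9%) and TTGGCA at 9 (10.7%, against 10.9%). FOXO factors are switched off by AKT, and their motif was at 3 of the 84 (3.57%, against 1.56%), which are the Akt1 promoter printed above, the Akt2 summit at 1671 bp and a summit in Adssl1. The E-box was at 4 (4.76%, against 4.68%), C/EBP at 2 (2.38%, against 1.33%), ETS at 3 (3.57%, against 5.38%) and YY1 at the Mtor promoter alone (1.19%, against 5.09%). EBF, searched as CCCNNGGGA, was at 5 (5.95%, against 9.93%), GATA at 2 (2.38%, against 3.78%) and NRF1, searched as GCATGCGC, at 1 (1.19%, against 1.37%). TGACG was at 12 (14.3%, against 14.8%), and the full element TGACGTCA, which contains it, was at 0 of the 84 (against 1.03%). Such letters are a description of the sequence and do not show that a factor was bound.

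The base composition followed the distance to a TSS. The 17 summits near a member's TSS had a median of 63.2% G and C and an observed over expected CpG of 0.658, and the 67 others 55.7% and 0.273. All summits of the list had 62.2% and 0.748 near a TSS and 54.2% and 0.235 away from one.

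A list of 73 genes of the pathway places the 10 members among their partners. A promoter summit was present at 54 of the 73 (74.0%), and without the 10 members at 46 of 63 (73%), against 45.2% of all genes. Of the ligands 0 of 4 had one (Ins1, Ins2, Igf1 and Igf2). Of the receptors 2 of 4 had one, Insr and, with a score of 3.75, Igf2r, while Igf1r and the related receptor Insrr had none. Docking and adaptor proteins had one at 11 of 12, the exception being Irs4, and the highest of them was Shc1 with 41.01. The inhibitors and phosphatases of the receptors had one at 4 of 8. There Grb10 shared its lack of a promoter summit with its relatives Grb14 and Grb7 and with the phosphatase Ptprf, and Ptpn1, Socs1, Socs3 and Enpp1 had one.

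Farther down, PI3K subunits had a promoter summit at 6 of 7 (not Pik3cd), lipid phosphatases at 3 of 4, AKT with its kinases and inhibitors at 7 of 8 and the subunits of the TOR complexes at 7 of 8 (not Rictor). The genes that control TOR had one at 4 of 4, namely Tsc1, Tsc2, Rheb and Ddit4. Targets of AKT and TOR had one at 10 of 14, not at Foxo3, Foxo4, Tbc1d1 and Eif4ebp1. The highest promoter scores of the 73 were at Gsk3b with 107, Akt1s1 with 74.8, Ppp2ca with 66.4, Gsk3a with 61.7 and Phlpp1 with 50.04, none of them a member. Slc2a4, the insulin-responsive glucose transporter, had 46.4.

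**Figure D5:**
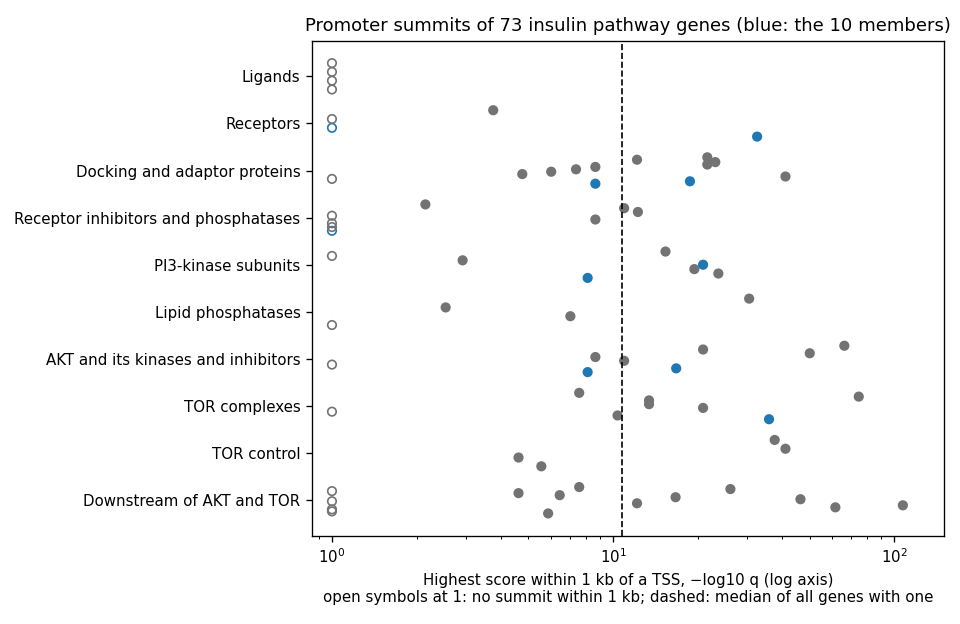
Highest promoter score (x axis, −log10 of the q-value, log axis) of 73 insulin pathway genes by role (y axis), with the 10 members in blue, all other genes in grey, open symbols at the left edge for genes with no summit within 1 kb of a TSS and a dashed line at 10.7, the median of all genes with one. All 4 ligands are open, and the highest point is Gsk3b at 107.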

How the data were processed

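The authors sequenced ATAC-seq libraries of BAT from 2 WT and 2 Dot1L-BKO mice, aligned the reads to mm10 with BWA and called peaks with MACS2 2.1.1 in its ATAC mode, with cutoffs on the q-value and on fold enrichment, per the submitters' notes and the study's methods. Their deposited list gives 1 summit per peak with the −log10 of its q-value (here the score). Beyond that mode, how reads were shifted for the transposase, how mitochondrial and multi-mapped reads were treated, and the roles of the libraries in MACS2 are not given in the sources used here. Depth is unknown. RNA-seq was not analysed here.

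Summits were placed on RefSeq mRNAs of GRCm38 (curated models, distinct TSSs), with the promoter window at 1 kb. Motifs were searched on both strands within 100 bp. Intervals are exact (Clopper-Pearson) at 95% and cover counting error only. The members, the pathway, marker and motif lists and the rule for genes to name were chosen with earlier results of these data known. The rule took all 10 members, neighbours inside a member or nearest to 1 of its 3 highest summits, the 5 highest promoter scores of the pathway list, its ligands, receptors and docking proteins without a promoter summit, and Ucp1. Other genes, non-coding RNAs included, were named after their values were seen. A few genes are not reported here. No test was made. The counting was checked on simulated summits placed at known distances. Counts were made in Python 3.11.15 with pandas 2.3.3 and numpy 2.4.6, intervals with scipy 1.17.1 and plots with matplotlib 3.10.9. Alternatives changed the score minimum, the window, the transcripts and the assignment of summits, merged close summits and left out single genes.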

Additional observations from a re-analysis of the deposited data

How the results depend on the processing

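No paired analysis was possible because each summit has 1 score and the libraries have none of their own, and for that reason no replicate could be left out either. A minimum on the score moved the counts by construction. A minimum of 5 left 40 summits at the 10 genes, with a median score of 8.93, 32.5% of them within 1 kb of a member's TSS and 28 nearest to a member. A minimum of 10 left 19 summits, with a median score of 16.0, 36.8% near a member's TSS, 11 nearest to a member, 5 members with a promoter summit and 33 of the 73 pathway genes with one. The other 68 values stayed within the limits set for them, and many of these settings left out a single gene. For counts the limits were wide, so that 57 or 119 summits in place of 84 passed. For the median score and the share near a member's TSS the limits were the 95% intervals. Counts of members with a promoter summit ran from 7, with a window from 1 kb upstream to 100 bp downstream that leaves out Insr, to 9 with 5 kb. Summits at the 10 genes ran from 57 with a distance of 10 kb to 119 with 100 kb. With motifs searched within 50 bp, a window that holds fewer bases, the shares of CRE, C/EBP, ETS and YY1 kept their value and the other 11 fell, 6 of them below the exact 95% interval of the share within 100 bp. AGGTCA went from 22.6% to 14.3% (8.20% of all summits) and FOXO from 3.57% to 1.19% (0.73% of all). Of the 84 summits, 82 shared their score with another, and 4.16 was the score of 1942 summits, so that small differences in score rank nothing. The median of 4.47 has an exact 95% interval of 4.15 to 6.02, which takes the summits as independent.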

Other observations

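A few genes of the pathway had a summit just beyond the promoter window. The summit nearest to Foxo3, a transcription factor that AKT keeps out of the nucleus, lay at -1098 bp with a score of 39.3, and that of Eif4ebp1, a translational repressor phosphorylated by the TOR complex, at 1021 bp with 8.65. With Igf1r at -1080 bp, these are among the 19 pathway genes counted as having no promoter summit. Rictor, the defining subunit of TOR complex 2, differed from them, with its nearest summit at -97130 bp and a score of 6.0.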
